A study of Mus musculus with 6 samples.

Results

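The tumour suppressor gene Trp53 and 9 of the genes that its protein p53 switches on were followed in mouse T helper cells exposed to fine particulate matter. Among the 9 are genes that halt growth and Mdm2, whose product limits p53. The 10 genes (Trp53, Cdkn1a, Mdm2, Ccng1, Zmat3, Phlda3, Sesn1, Btg2, Plk2 and Trp53inp1) were chosen by symbol from a table of 34745 genes, and each symbol belonged to 1 gene. Naive CD4 T cells came from the spleens of C57BL/6 mice, for which the labels give female animals aged 6 weeks. All cultures were stimulated through CD3 and CD28 and polarised towards Th17 cells for 4 days. The medium held 20 ng/ml of IL-6, 10 ng/ml of IL-23, 2 ng/ml of TGF-beta, 5 ng/ml of IL-2, and 5 µg/ml of each of the antibodies that neutralise IFN-gamma and IL-4. The PM2.5 group received a suspension of fine particles at 100 µg/ml at 6 h of stimulation and the control group received PBS, with 3 libraries of RNA in each group. The labels do not say whether the libraries of a group came from separate animals or cultures, so p-values measure the spread between these libraries, which may be technical.

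p53 is a transcription factor that is held at a low level by the ubiquitin ligase Mdm2 and is released from it after DNA damage and other stress. It then binds paired copies of a short palindrome near its target genes and raises their transcription, among them Mdm2 itself, so that the pathway limits its own activity. Its control lies largely in protein stability and modification, which RNA levels do not show. In dividing T cells the arrest targets oppose the cyclins and kinases of the cell cycle.

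The palindrome can be read in the upstream sequence of some of the genes. It is shown here because the 2 genes found with a paired copy in the windows searched went in opposite directions. Upstream windows from RefSeq (build GRCm38.p6, the mm10 assembly; 250 bases before to 50 after a start) were found for 8 of the 10 genes, 10 windows in all. Zmat3 and Trp53inp1 had no entry. The p53 response element was searched as 2 adjoining 10-base copies of its palindrome, with the C and the G of each copy's core fixed and up to 2 mismatches elsewhere. The palindrome is its own reverse complement, so a search of 1 strand covers both. Of 32851 windows of the same length, 107 (0.326%) held such an element and 22 (0.067%) held one with at most 1 mismatch. Of the 10 windows, 1 of Cdkn1a and that of Ccng1 held one, each with 1 mismatch. They are printed 5′ to 3′ on the gene's strand, with the 20 bases of the element in capitals.
Cdkn1a (chr17:29090908-29090967, plus strand): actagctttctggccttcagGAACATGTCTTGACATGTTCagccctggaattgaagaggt
Ccng1 (chr11:40755442-40755501, minus strand): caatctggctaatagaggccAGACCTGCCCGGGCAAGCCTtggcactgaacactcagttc
The Cdkn1a element began 51 bases before the more upstream of the gene's 2 RefSeq starts, and the Ccng1 element 195 bases before its start. In the Cdkn1a element the mismatch lies in the second copy, in Ccng1 in the first. At least 1 perfect copy of the palindrome was present in 8.36% of all windows. Such a copy was in the windows of Trp53, Mdm2 and Ccng1 and in 1 of the 2 windows of Sesn1. The same upstream window of Cdkn1a held 2. No match says only that these letters are not in the window.

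Library totals were 19511561 to 22353131 counts in the PBS group and 25397965 to 27215853 in the PM2.5 group, so each PM2.5 library was deeper. Levels within a gene are given as CPM, counts scaled to a common library size with TMM factors, and differences as log2 fold changes of PM2.5 over PBS with their SE. A gene passed at an adjusted p under 0.05 by the edgeR quasi-likelihood test, adjusted over 12967 genes after Benjamini and Hochberg. The 6 CD4 T cell markers summed to 2430 to 2470 in PBS and 2280 to 2330 in PM2.5, in CPM by library totals, and the 6 Th17 markers to 3570 to 3620 and 2560 to 3030. The 29 markers of B cells, macrophages, CD8 T cells, NK cells, neutrophils, dendritic cells and erythroid cells summed to 25.8 to 29.2 in PBS and 15.7 to 17.3 in PM2.5. Of these, 11 were at 0 in all libraries (Ms4a1, Lyz2, Ncr1, Klra8, S100a8, S100a9, Siglech, Clec9a, Hba-a1, Hbb-bs and Alas2). Of the 7 that could be tested, 5 fell and 2 rose, where 35.3% of all genes tested fell and 35.2% rose. Ly6g fell most (-3.14), and the rises were those of Zbtb46 (2.54) and Cd8b1 (0.55). The part of these cells in the results was not tested.

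Under PM2.5 the p53 genes split. Plk2 rose 4.98-fold, Cdkn1a 1.86-fold, Mdm2 1.45-fold and Trp53 itself 1.17-fold. Btg2 fell 1.97-fold, Sesn1 1.42-fold, Ccng1 1.28-fold, Zmat3 1.26-fold, Phlda3 1.21-fold and Trp53inp1 1.06-fold. All 10 genes were tested and all 10 passed, 4 higher and 6 lower, against 70.6% of all genes tested that passed (35.2% higher and 35.3% lower). For each of the 10, all PM2.5 libraries lay on 1 side of all PBS libraries, as they did for 74.9% of all genes tested. Because RNA was taken from whole cultures, a change in the RNA per cell and a change in the share of cells that express a gene cannot be told apart. The median log2 fold change of the 10 was -0.18, beside -0.01 over all genes tested, and the median size of change was 0.43 in each.

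**Figure D1:**
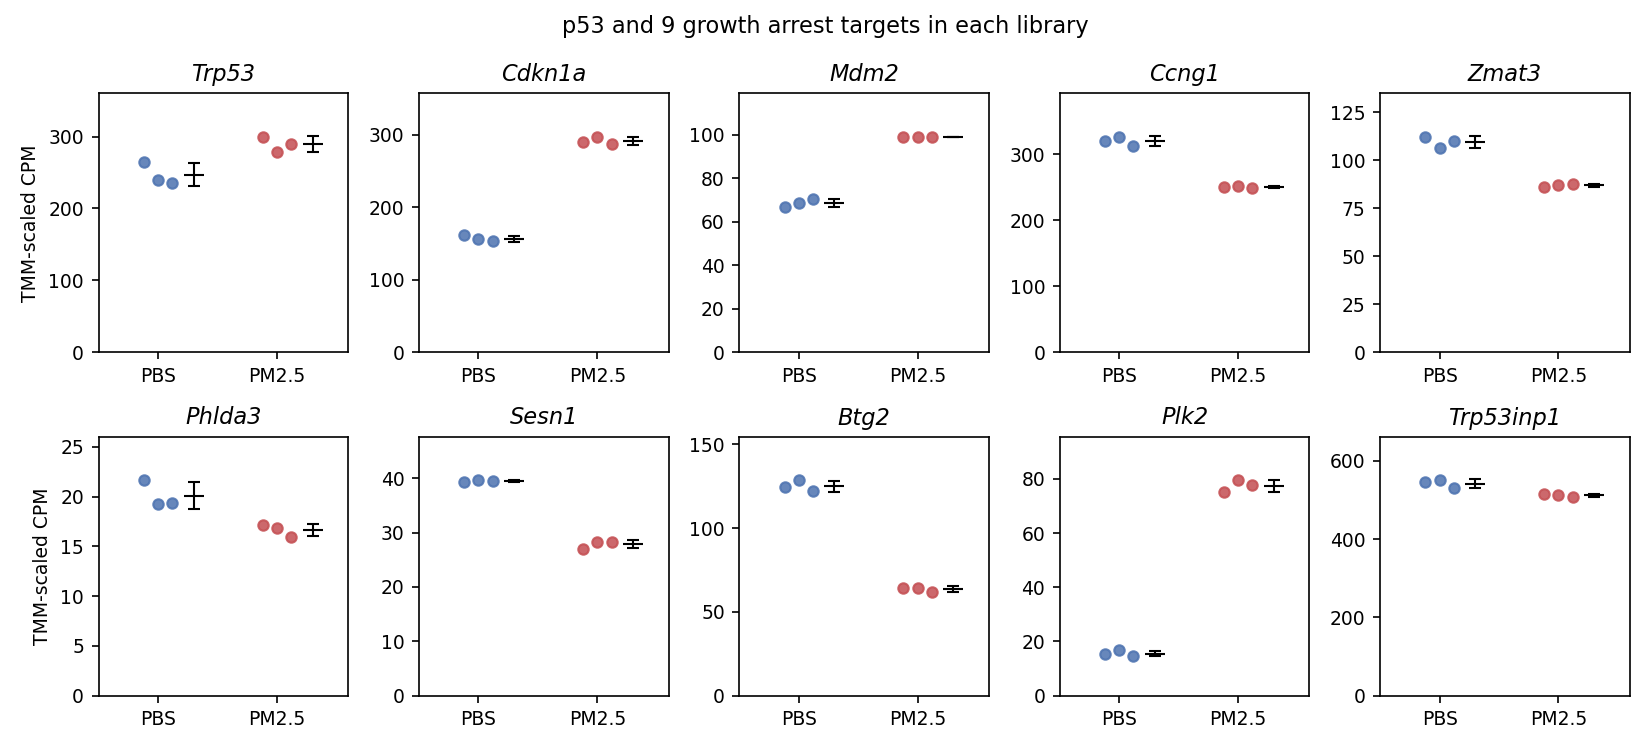
TMM-scaled CPM (y axis, from 0, a scale for each gene) of Trp53 and 9 targets in the 3 PBS and 3 PM2.5 libraries; points are libraries and black marks the mean with SD. Trp53, Cdkn1a, Mdm2 and Plk2 sit higher in all PM2.5 libraries and the other 6 genes lower. As a fold, the change is largest for Plk2 (15.5 to 77.4 CPM, 4.98-fold) and smallest for Trp53inp1 (542 to 512 CPM, 1.06-fold).

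Trp53 (ENSMUSG00000059552, mm10 chromosome 11, 69580359 to 69591873) stood at 265, 240 and 235 CPM in PBS and at 300, 279 and 290 CPM in PM2.5. All PM2.5 libraries lay above all PBS libraries, but the gap between the nearest ones was under the SD of the PBS group (15.9 CPM). The log2 fold change was 0.23 (SE 0.05, adjusted p = 0.00169), and 70.2% of all genes tested changed more. It was 0.12 (adjusted p = 0.0379) with upper quartile scaling, which moved all genes by a median of -0.11 on the log2 scale. Filtering at 5 CPM gave 0.166, scaling by library totals 0.167, and limma on FPKM 0.164 and 0.168. The size of this small rise thus depends on how the libraries are scaled and on which genes are kept. A processed copy, Trp53-ps, held at most 1 count in any library.

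Mdm2 (ENSMUSG00000020184, chromosome 10, 117688888 to 117710758), which encodes the ligase that marks p53 for destruction, went from 66.6, 68.4 and 70.5 CPM to 99.0, 99.1 and 99.0 CPM, or 0.53 on the log2 scale (SE 0.04, adjusted p = 4.13e-07). The PM2.5 libraries, with 2635, 2529 and 2459 counts, had a coefficient of variation of 0.0283%, under the 1.98% that counting error alone would give, so their spread understates the error of the mean. The ratio of Mdm2 to Trp53 in FPKM (counts per gene length and library total) was 0.183, 0.207 and 0.218 in PBS and 0.24, 0.258 and 0.248 in PM2.5. This ratio does not depend on library scaling, and the groups did not overlap.

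Cdkn1a (ENSMUSG00000023067, chromosome 17, 29090979 to 29100722) encodes p21, the inhibitor of cyclin-dependent kinases through which p53 arrests cells in G1. It was at 161, 156 and 153 CPM in PBS and at 290, 297 and 287 CPM in PM2.5. The log2 fold change was 0.90 (SE 0.03, adjusted p = 2.91e-09). The increase was many times the spread within a group. Per length, the ratio of Cdkn1a to Trp53 went from 1.41, 1.50 and 1.50 to 2.24, 2.47 and 2.29. Its ratio to Ccna2, the S phase cyclin whose kinase p21 inhibits, went from 0.905 ± 0.022 to 2.07 ± 0.084 (SD, n = 3).

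Plk2 (ENSMUSG00000021701, chromosome 13, 110395044 to 110400844), a polo-like kinase with a part in centriole duplication, had the lowest mean of the 10 per length in PBS. It had 15.2, 16.7 and 14.7 CPM in PBS and 75.0, 79.5 and 77.6 CPM in PM2.5. The log2 fold change of 2.32 (SE 0.06, adjusted p = 2.21e-10) was exceeded upward by 1.27% of all genes tested, against 8.26% for Cdkn1a. Its PBS values rest on 332 to 344 counts a library.

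Btg2 (ENSMUSG00000020423, chromosome 1, 134075170 to 134079120), an antiproliferative protein that recruits the deadenylase machinery to messenger RNA and helps keep T cells quiescent, fell most. It went from 124, 129 and 122 CPM to 64.5, 64.5 and 61.8 CPM, or -0.97 on the log2 scale (SE 0.04, adjusted p = 4.78e-09). Each PM2.5 library was well under each PBS library, and 13% of all genes tested fell further. Sesn1 (ENSMUSG00000038332, chromosome 10, 41810574 to 41908424), a sestrin that restrains mTORC1, was at 39.4, 39.6 and 39.4 CPM in PBS and 27.0, 28.3 and 28.2 CPM in PM2.5 (-0.50, SE 0.05, adjusted p = 6.31e-06). Its coefficient of variation in PBS was 0.38%, under the counting error of 3.41%, so that spread understates the error of the mean.

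Ccng1 (ENSMUSG00000020326, chromosome 11, 40748552 to 40755311), the gene of cyclin G1, which carries a p53 element like that of Cdkn1a, moved the other way from Cdkn1a. It fell from 320, 327 and 312 CPM to 250, 252 and 249 CPM (-0.35, SE 0.03, adjusted p = 1.58e-06). Zmat3 (ENSMUSG00000027663, chromosome 3, 32334792 to 32366014), an RNA-binding zinc finger protein, was at 112, 106 and 110 CPM and then at 86.2, 86.8 and 87.7 CPM (-0.33, SE 0.04, adjusted p = 1.12e-05). These were moderate falls. In PM2.5 the coefficients of variation of Ccng1 (0.655%) and Zmat3 (0.842%) were under the counting errors of 1.25% and 2.12%. The spread of these libraries thus understates the error of the mean.

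Phlda3 (ENSMUSG00000041801, chromosome 1, 135766119 to 135769136), which encodes a small inhibitor of the kinase Akt, was at 21.7, 19.2 and 19.3 CPM in PBS and 17.1, 16.9 and 15.99 CPM in PM2.5 (-0.27, SE 0.07, adjusted p = 0.00632). It rests on 382 to 490 counts a library and has the widest SE of the 10. Trp53inp1 (ENSMUSG00000028211, chromosome 4, 11156431 to 11174379), a nuclear protein that works with p53 and in autophagy, was at 546, 551 and 530 CPM and at 516, 513 and 508 CPM. Its log2 fold change of -0.08 (SE 0.03, adjusted p = 0.0205) was the smallest of the 10, and 89.5% of all genes tested changed more. The call was lost without PBS replicate 1 or without PM2.5 replicate 2 or 3 (adjusted p = 0.0532, 0.0668 and 0.0841). The log2 fold change was -0.19 with upper quartile scaling, -0.147 after filtering at 5 CPM and -0.146 when scaled by library totals. Limma on FPKM gave -0.143 and -0.145.

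Per length the order of the genes changed between the groups. In PBS the highest mean FPKM were those of Trp53inp1 (77.0 ± 1.21) and Ccng1 (75.7 ± 1.33), whose libraries overlapped. Cdkn1a (52.1), Btg2 (46.6), Trp53 (35.5), Sesn1 (12.1), Phlda3 (10.2) and Mdm2 (7.16) followed, each apart from its neighbours, and Zmat3 (5.89) and Plk2 (5.67) overlapped at the bottom. In PM2.5 Cdkn1a was highest at 92.7 ± 1.69 FPKM, and Plk2, at 27.0 ± 0.784, stood above Btg2 (22.7 ± 0.558). Sesn1 (8.18) and Phlda3 (8.12) overlapped there, and Zmat3 (4.47) was lowest.

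**Figure D2:**
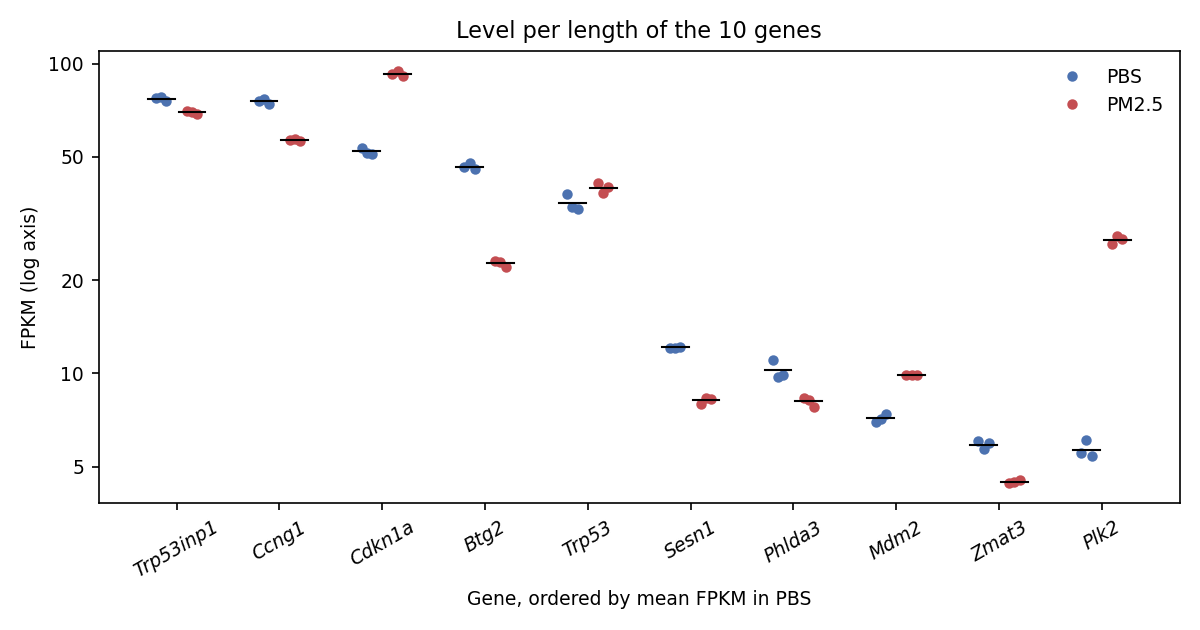
FPKM on a log axis of the 10 genes, ordered by their mean in PBS; points are the 3 libraries of a group and bars are means. Plk2 moves from the last place in PBS (5.67 FPKM) to the fifth in PM2.5 (27.0 FPKM), and Cdkn1a from the third (52.1 FPKM) to the first (92.7 FPKM).

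The relatives of the targets by family did not all move with them. The sestrins went apart: Sesn2, itself a p53 target and also a sensor of leucine, rose from 41.1, 40.2 and 39.0 CPM to 193, 191 and 191 CPM (2.26, SE 0.04, adjusted p = 1.02e-11), while Sesn1 and Sesn3 (-0.70, SE 0.03) fell. Sesn2 and Sesn1 were at near equal FPKM in PBS, with ratios of 0.998, 0.969 and 0.947, and at 6.84, 6.45 and 6.48 in PM2.5. In the antiproliferative family Btg1 fell with Btg2, from 678 ± 21.7 to 301 ± 7.08 CPM (SD, n = 3), a log2 fold change of -1.17. Btg3 (1.41), Tob1 (0.36) and Tob2 (0.78) rose. Btg3 was low, at 2.24 ± 0.269 CPM in PBS.

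Of the other polo-like kinases, Plk3 fell (-0.22), and Plk1 (-0.10, adjusted p = 0.111) and Plk4 (0.19, adjusted p = 0.101) did not pass. Plk1 passed as a fall in 7 of the 14 alternatives (adjusted p = 0.00412 to 0.0495), and Plk4 passed as a rise without PBS replicate 1 (adjusted p = 0.00567). The inhibitor Cdkn1b, p27, rose with Cdkn1a (0.39, SE 0.04), and Cdkn1c, at 1.74 CPM in PBS, fell (-0.74, adjusted p = 0.00700, and 0.072 with DESeq2). Mdm4, the partner of Mdm2 that masks p53, stood at 219, 224 and 225 CPM in PBS and 184, 182 and 218 CPM in PM2.5 (-0.19, adjusted p = 0.0430). The call of Mdm4 was lost with no filter on low counts and when any single library other than PM2.5 replicate 3 was left out (adjusted p = 0.0578 to 0.137). Ccng2 (-0.50) and Zmat5 (-0.41) fell as Ccng1 and Zmat3 did, and Zmat1 did not pass (-0.55, adjusted p = 0.143, and 0.000341 without PBS replicate 2). Trp53inp2 fell from 78.4 ± 1.20 to 40.5 ± 0.468 CPM (-0.95), beside -0.08 for Trp53inp1. Phlda1 rose where Phlda3 fell (0.27, adjusted p = 0.0142), and Phlda2 had 0 counts in all libraries. The call of Phlda1 was lost with 4 of the 14 alternatives, DESeq2, library totals, upper quartile scaling and without PBS replicate 2. The 17 relatives tested comprised 6 that rose, 8 that fell and 3 that did not pass (median -0.19). Among all genes tested 35.2% rose and 35.3% fell.

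**Figure D3:**
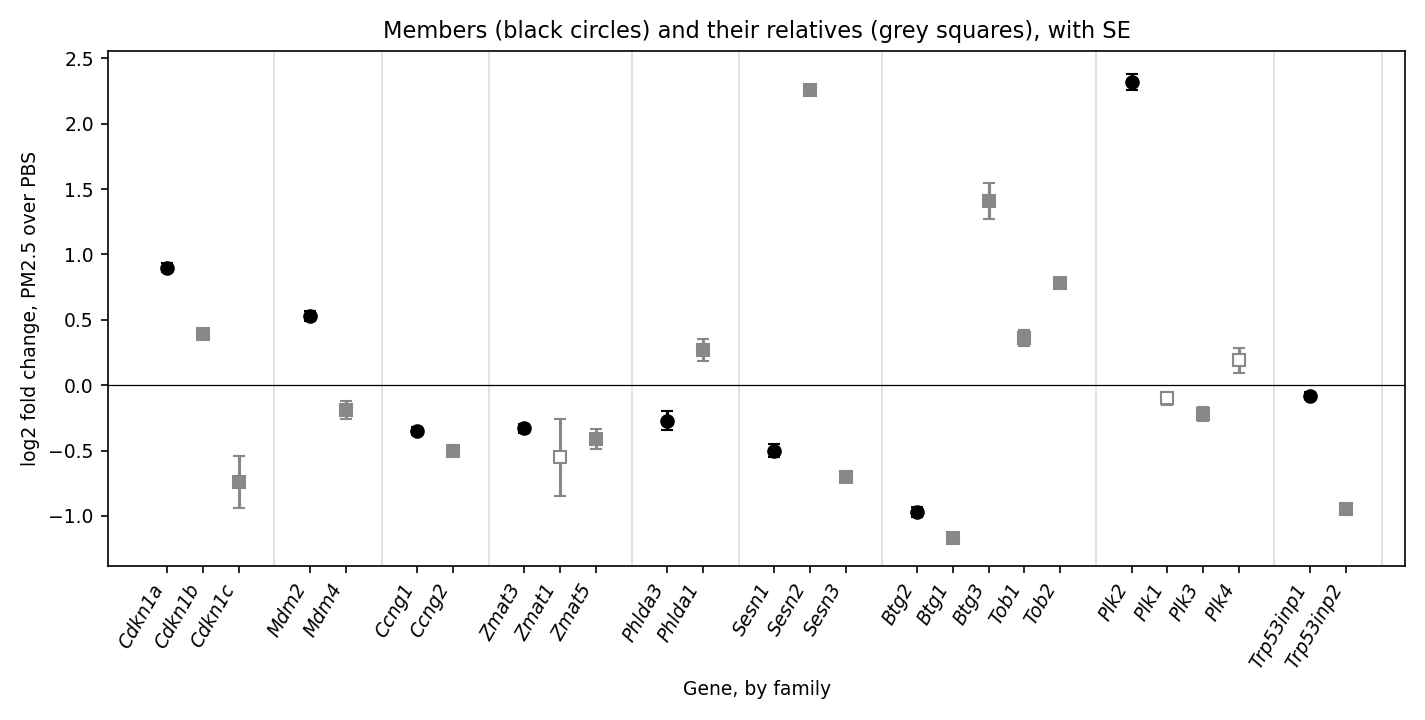
Log2 fold change of PM2.5 over PBS with SE for 9 p53 targets (black circles) and their relatives (grey squares), grouped by family; open symbols did not pass. Sesn2 (2.26) lies far above Sesn1 (-0.50) and Sesn3 (-0.70), and Plk2 (2.32) far above the other polo-like kinases.

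The p53 targets that act in cell death also went both ways. Of 12 tested, 3 rose, 6 fell and 3 did not pass (median -0.31), where 35.2% of all genes tested rose and 35.3% fell. Bbc3, which encodes the BH3-only protein PUMA, rose from 29.6, 29.9 and 31.6 CPM to 57.2, 63.1 and 62.5 CPM, 2.01-fold, and the death receptor gene Tnfrsf10b rose by 0.83. Pmaip1, which encodes the related BH3-only protein NOXA, fell from 183 ± 3.94 to 104 ± 3.38 CPM (-0.81). Steap3, a metalloreductase, fell by 2.39 on the log2 scale from a low level of 2.48 CPM. Bax did not pass (-0.22, adjusted p = 0.234), but passed as a fall without PBS replicate 1 (-0.353, adjusted p = 0.00586). The falls of the list numbered 5 to 7 over the 14 alternatives.

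Of the 15 targets in metabolism, DNA repair and dephosphorylation, 5 rose, 5 fell and 5 did not pass (median 0.02). The shares over all genes tested were 35.2% higher and 35.3% lower. Besides Sesn2, the glutaminase Gls2 (0.98) and the ribonucleotide reductase subunit Rrm2b (0.67) rose. Gadd45a, a growth arrest gene induced by DNA damage, fell from 16.2, 13.7 and 15.3 CPM to 6.20, 5.76 and 6.12 CPM (-1.32, SE 0.09, adjusted p = 3.66e-07). The smallest changes among the genes of this list that passed, named for their lost calls, depended on the setting. The rise of Tigar (0.17, adjusted p = 0.0361) was lost in 12 of the 14 alternatives (adjusted p = 0.0549 to 0.44), DESeq2 among them. The fall of Xpc (-0.13, adjusted p = 0.0445) was lost in 8 (adjusted p = 0.0702 to 0.17), again with DESeq2 among them. That of Ddb2 was lost without PM2.5 replicate 2 (adjusted p = 0.0552), where the falls of the list numbered 3.

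Of the 20 tested genes whose products act on p53 or belong to its family, 12 rose, 7 fell and 1 did not pass (median 0.27). Over all genes tested 35.2% rose and 35.3% fell. The rise of Ep300 (0.11), an acetylase named for this reason, was lost in 6 of the 14 alternatives and turned to -0.001 with upper quartile scaling. Npm1, the nucleolar protein that binds Mdm2, rose from 1082 ± 61.6 to 1732 ± 57.5 CPM (0.68), although it has pseudogenes that can share its reads. Of the 6 kinases in the list that act on p53, 4 fell, Hipk2 (-1.04), Prkdc, the DNA-dependent protein kinase (-0.96), Chek2 (-0.62) and Atm (-0.20). Atm was named after its values were seen, as were the other 2 kinases, which rose, Atr (0.36, adjusted p = 0.000153) and Chek1 (0.27, adjusted p = 0.00239). Hipk2 went from 209 ± 6.87 to 102 ± 4.19 CPM. Cdkn2a had the largest change of the list (-1.51, adjusted p = 0.0229), on 12, 12 and 13 counts in PBS and 2, 3 and 10 in PM2.5. Its fall was lost in 5 of the 14 alternatives (adjusted p = 0.0525 to 0.0855), DESeq2 among them. The p53 relative Trp63 had 0 counts in all libraries and Trp73 was too low to test.

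Most genes of the cell cycle engine fell. Among the 22 S phase and mitosis genes that the DREAM complex represses when p21 is active, 17 fell, 1 rose and 4 did not pass (median -0.25), where 35.3% of all genes tested fell. Rrm2, which makes deoxynucleotides (-0.84), Mcm6 of the replicative helicase (-0.81), the mitotic cyclin Ccnb2 (-0.70) and the survivin gene Birc5 (-0.47) fell most. The single rise, of Cdc20 (0.13, adjusted p = 0.00607), was lost with library totals, upper quartile scaling, limma on FPKM and the filter at 5 CPM.

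Of the 10 cyclins, kinases and the clamp that p21 binds, 2 rose, 6 fell and 2 did not pass (median -0.20). Beside them, 35.2% of all genes tested rose and 35.3% fell. Ccnd2, a D-type cyclin that drives entry into the cycle, rose from 348, 344 and 345 CPM to 856, 861 and 844 CPM (1.30, SE 0.03, adjusted p = 3.41e-11), 2.47-fold, beside the 1.86-fold rise of Cdkn1a. Ccnd1, at 1.57 CPM in PBS, fell by 2.19 on the log2 scale, and Ccne1 (-0.41) and Ccna2 (-0.29) fell. The other rise, of Ccne2 (0.18, adjusted p = 0.0386), had overlapping groups and was lost in 10 of the 14 alternatives. The groups of the clamp gene Pcna overlapped too, and its fall (-0.12, adjusted p = 0.0400) was lost in 6 alternatives (adjusted p = 0.0503 to 0.167), among them DESeq2 and the fits without any single one of 4 libraries, PBS replicates 1 and 3 and PM2.5 replicates 1 and 3.

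**Figure D4:**
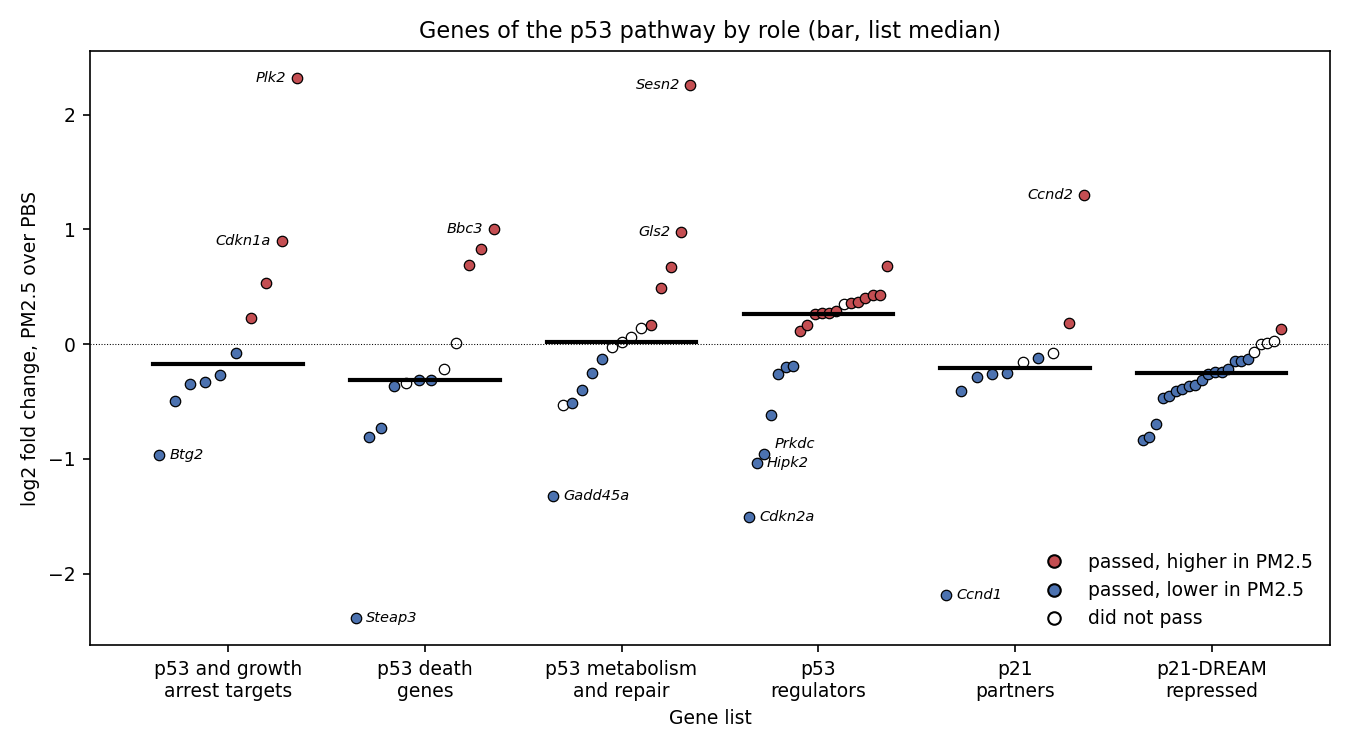
Log2 fold change of PM2.5 over PBS for the tested genes of 6 lists, ordered by value within a list, with a bar at the list median. Coloured points passed the test and white points did not; p53 targets lie on both sides of 0, and 17 of the 22 DREAM-repressed genes are lower in PM2.5.

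The genes whose profile over the 6 libraries lay nearest to that of Trp53, by the Euclidean distance of centred log2 CPM, were Wdr26, Spsb3 and Atxn1l, at distances of 0.0686, 0.0693 and 0.0758. Those nearest to Cdkn1a were Ttc27, Nop2 and Fbxo33, at 0.0562, 0.0607 and 0.0615. None of the 6 is among the p53 genes listed here. With a single contrast of groups many genes share such a profile: 4792 genes lay within 0.5 of Trp53 and 1589 within 0.5 of Cdkn1a.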

How the data were processed

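RNA-seq of 6 libraries, 3 PBS and 3 PM2.5, was analysed. The authors deposited raw counts per Ensembl gene and FPKM values, per the file headers. For 10107 genes the deposited FPKM equal count over library total and 1 fixed length to within 0.011%. The submitters' processing notes name TopHat2 2.0.6 and mm10. How reads were counted, with which annotation and with or without strand, is not given in the sources used here. None of the 10 genes overlaps another gene in the table. In the GENCODE annotation Cdkn1a shares 273 exonic bases with AC167363.2 on the opposite strand. Sesn1 overlaps 9930024M15Rik on its own strand, with 0 exonic bases shared. Neither of these genes is in the table, and their part in the counts was not tested.

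Genes were filtered with filterByExpr (minimum count 10, minimum total 15) in edgeR 4.0.16 under R 4.3.3. This left 12967 genes with 99.9% of the counts. They were tested with TMM scaling and edgeR's robust quasi-likelihood F test between the groups, two-sided and without a replicate block. Adjusted p-values are from this edgeR test unless named otherwise. SEs were derived from the fold change and the square root of F. The script was tested on simulated data.

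The members and lists were chosen with earlier results of these data known. Of the lists, 1 gene (Tnfrsf10a) had no match. Named in the text are all 10 genes, their relatives, and of each other list up to 4 genes with the largest change among those that passed with a mean of at least 1 CPM in a group. Others are named for a call lost or gained in an alternative, or as chosen after their values were seen. Not every list gene with a call lost or gained is named. Alternatives were DESeq2 1.42.0, library totals, upper quartile scaling, no filter, a filter at a mean of 5 CPM, limma 3.58.1 on log2(FPKM + 1) and log2(FPKM + 0.1), a replicate block and leaving out each library. Protein sequences were not used here.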

Additional observations from a re-analysis of the deposited data

How the results depend on the processing

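Of the 10 genes, 9 kept their direction and their call in all 14 alternatives, among them Cdkn1a (0.785 to 0.914), Plk2 (2.070 to 2.369) and Btg2 (-1.086 to -0.947). Leaving out 1 library gave Trp53inp1 values of -0.101 to -0.068, and 3 of these lost the call. The p21 partners that rose numbered 1 with DESeq2, library totals, upper quartile scaling, the filter at 5 CPM and each limma fit on FPKM, and 1 to 2 without 1 library. The DREAM-repressed genes that rose numbered 0 with library totals, upper quartile scaling, the filter at 5 CPM and each limma fit. Those that fell numbered 15 to 20 over the 14 alternatives. Cdc25a lost its call in 4 of these, and Cdc25c and Foxm1 in 2 each. Mcm5, which had not passed, passed as a fall in 6 (adjusted p = 0.00228 to 0.0288). The p53 regulators that rose numbered 9 to 12 and those that fell 5 to 7. Usp7, Rpl11 and Ep300 lost their calls with upper quartile scaling (adjusted p = 0.114, 0.104 and 0.973). Rpl11 also lost its call with DESeq2 (adjusted p = 0.0639). Ep300 lost its call in 6 of the 14 alternatives (adjusted p = 0.0659 to 0.973), among them library totals, the filter at 5 CPM and each limma fit. The metabolism and repair genes that fell numbered 3 to 5 without 1 library. Upper quartile scaling shifted the log2 fold changes of all genes, with a median shift of -0.111, and turned the sign of Ep300, a p53 regulator (-0.001). Apaf1 (-0.104) and Aurka (-0.106), which had not passed, also turned sign with it and passed as falls (adjusted p = 0.0466 and 0.012). Of the genes it called, 40.4% were higher in PM2.5, against 49.9%. Upper quartile scaling was not alone in this. Smaller downward median shifts came from filtering at 5 CPM (-0.066), from dropping the TMM factors (-0.064) and from limma (-0.060 and -0.063).

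With the replicate number as a block, 9002 genes passed, against 9149, and the 10 genes kept their calls. Among the named list genes, the block ended the calls of Tigar, Xpc and Pcna (adjusted p = 0.0619, 0.0702 and 0.107) and let Plk1 pass (0.0495). Same-numbered libraries had correlations of deviations from their group means of 0.0134, 0.0072 and 0.045, and not every library correlated best with its own number, so the numbers were not taken to pair the samples. Depth limits Phlda3 and Plk2 most, with counting errors of 4.77% and 5.44% a library in PBS.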

Other observations

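Trp53cor1, the long non-coding RNA gene known as lincRNA-p21, lies upstream of Cdkn1a on chromosome 17 and is a p53 target. Chosen after its values were seen, it had 34, 33 and 23 counts in PBS and 15, 10 and 17 counts in PM2.5. It fell by 1.33 on the log2 scale (SE 0.30, edgeR adjusted p = 0.0023), while Cdkn1a rose. The counts are few, and the groups did not overlap.

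Some genes of the lists varied between libraries of a group far more than the 10 genes did. The exonuclease gene Aen, a p53 target, stood at 63.2, 18.0 and 21.9 CPM in PBS and at 21.2, 33.8 and 26.8 CPM in PM2.5. The cyclin gene Ccnd3 stood at 114, 46.8 and 46.2 CPM in PBS and at 124, 31.5 and 29.5 CPM in PM2.5. The ubiquitin ligase gene Rchy1, whose product acts on p53, stood at 45.6, 49.3 and 27.7 CPM and at 34.5, 63.1 and 58.4 CPM. None of them passed the test, and the cause of the spread was not tested.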
